A study of Mus musculus with 12 samples.

Results

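The genes described here are 7 liver genes that are known for repression by pulses of growth hormone: Cyp2b9, Cyp2b13, Slc22a27, Cyp3a41a, Cyp17a1, Fmo2 and A1bg. They were chosen by gene name, from earlier results on these same arrays in which the signals of 12 mouse livers were compared between genotypes, so every group difference of these 7 genes is given as a description with no test. Matching the gene names of the array's own annotation found 6 of the 7, and Cyp3a41a was reached through a probe that it shares with Cyp3a41b. Of the 34607 gene names on the array 20572 had enough signal to be tested, among them 6 of these 7 genes. A1bg was not well above background on any of the 12 arrays.

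In the mouse, the pituitary of males releases growth hormone in pulses separated by quiet intervals, whereas females have a more continuous pattern. Each pulse activates the kinase JAK2 and the transcription factor STAT5B in hepatocytes, which directly and through secondary factors such as the repressors BCL6 and CUX2 sets up many sex differences in liver gene expression. Genes held down by the male pattern have higher RNA in female liver and rise in male liver when pulses or STAT5B are lost, and genes of steroid, drug and organic anion metabolism are prominent among them.

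RNA was measured on 1-colour Agilent arrays, 1 array per liver, in 3 groups of 4 mice: E2f1-/- mice, E2f2-/- mice and wild-type mice of a 129/Sv x C57BL/6 background. Circulating growth hormone is not among the values used here. E2f1 and E2f2 encode transcription factors that regulate genes of cell division. According to the protocol all 3 groups, controls included, were given the liver carcinogen diethylnitrosamine (DEN) once by intraperitoneal injection (25 mg/kg, postnatal day 14), followed from weaning by 32 weeks of high-fat diet (60% of its calories as fat). Livers were taken at 9 months, after a fast of 4 h. One label field of the E2f1 knockout samples names vehicle and chow in place of DEN and high-fat diet, against their titles, descriptions and other fields, and was not followed. The labels call the replicates separate numbered samples, and sex is not stated in the sources used here. Whether tumours were separated from the liver tissue is not stated there either, and in such bulk tissue fewer cells of a type and less RNA per cell cannot be told apart.

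Several facts of the whole series bear on these genes. Between 44.8% and 54.5% of probes were well above background on each array, and the number of arrays limits the precision. The E2f1 probe was lower in E2f1 knockout livers than in wild-type livers (log2 difference -0.82, limma adjusted p = 0.0114). The E2f2 probe gave 0.19 to 0.73 in the livers labelled E2f2 knockout and 0.48 to 1.04 in wild-type livers (log2 difference -0.26, limma adjusted p = 0.408). It gave -1.10 to -0.20 in E2f1 knockout livers, below all wild-type livers (limma adjusted p = 0.00141). The position of these probes relative to the deleted parts is not known here, and a probe outside them checks nothing, so the second group is called E2f2-labelled below. Xist, the RNA of the inactive X chromosome of females, was above background on 0 of 12 arrays, and the Y-linked Eif2s3y, Ddx3y and Uty were above background on all 12. Every liver of every group thus had the pattern of male tissue. Hepatocyte markers were bright on every array, with a median log2 signal of 9.18 to 9.48 in E2f1 knockout, 9.03 to 9.47 in E2f2-labelled and 8.97 to 9.22 in wild-type livers. Over all 20572 genes, limma (adjusted p under 0.05) called 13.2% higher and 7.41% lower in E2f1 knockout than in wild-type livers, and 14.6% higher and 7.57% lower in E2f2-labelled than in wild-type livers. Between E2f2-labelled and E2f1 knockout livers 0.914% were called higher and 0.724% lower. Of the calls against wild type 64.0% and 65.9% were higher. The median gene lay 0.13 and 0.18 above wild type on the log2 scale, and centring each array on its median instead gave 50.9% and 47.6% higher.

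Cyp2b9 and Cyp2b13 lie next to each other among the protein-coding genes of chromosome 7, and the stretches before their starts were nearly identical. The 250 bases before each start, from RefSeq on GRCm38.p6, are shown because both genes were low in E2f1 knockout livers and in E2f2-labelled livers, with the differing bases in capitals and positions counted from 1 at the first base. Cyp2b9 (chr7:26173159-26173408, plus strand) and Cyp2b13 (chr7:26061245-26061494, plus strand) read as follows.
Cyp2b9: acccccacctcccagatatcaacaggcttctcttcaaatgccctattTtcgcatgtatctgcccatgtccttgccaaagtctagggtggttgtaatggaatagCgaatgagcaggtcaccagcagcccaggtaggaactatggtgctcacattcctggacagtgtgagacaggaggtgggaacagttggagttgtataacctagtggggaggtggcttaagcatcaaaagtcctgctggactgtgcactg
Cyp2b13: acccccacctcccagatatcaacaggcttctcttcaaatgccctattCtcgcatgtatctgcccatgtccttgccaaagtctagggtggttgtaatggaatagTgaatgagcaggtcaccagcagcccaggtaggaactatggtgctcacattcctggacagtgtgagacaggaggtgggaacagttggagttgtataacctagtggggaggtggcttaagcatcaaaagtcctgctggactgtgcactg
The substitutions, Cyp2b9 base first, were T48C and C104T, and over the whole 300-base window of the table, which runs 50 bases past the start, 298 bases were identical with no gap. Against Cyp2b10, the drug-inducible gene on the other side of Cyp2b13, both windows were 72.9% identical in a global alignment.

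Of 6 genes with a window in the table, 2 held the STAT5 letters TTCNNNGAA on either strand (Fmo2 and A1bg), against 9.55% of all 27025 genes with a window. The letters ATTGAT, bound by HNF6 and CUX2, were found in 2 of the 6 (Cyp3a41a and A1bg), against 8.63% of all genes, and the E2F letters TTTNNCGC in 0 of the 6, against 5.93%. Each motif was searched on both strands, and a match is a description of these letters and not of a bound site. The Cyp3a41a stretch (chr5:145720137-145720386, minus strand, GRCm38.p6) is shown because it is the member with both signal on the arrays and one of these motifs before its start, with the match to ATTGAT on the reverse strand in capitals.
Cyp3a41a: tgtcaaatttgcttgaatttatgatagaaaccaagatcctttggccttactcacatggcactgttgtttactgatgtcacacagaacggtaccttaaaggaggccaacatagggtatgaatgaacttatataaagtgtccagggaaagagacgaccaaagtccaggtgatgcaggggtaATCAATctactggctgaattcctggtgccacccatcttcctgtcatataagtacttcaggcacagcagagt
The Fmo2 match lay 13 bases after its start. Cyp17a1 had no window in the table.

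Values below are log2 signals relative to the 75th percentile of the same array, where 0 is that percentile and 1 unit is a factor of 2. They are given for replicates 1 to 4 in order. Levels of different genes come from different probes and are not set against each other.

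Cyp2b9, a female-predominant steroid hydroxylase of the cytochrome P450 family, was read by a probe at chr7:26983484-26983543 (mm9). It had -2.35, -2.47, -4.14 and -1.36 in E2f1 knockout livers, -3.94, -3.76, -4.21 and -3.11 in E2f2-labelled livers, and 0.67, 0.31, -1.49 and 0.73 in wild-type livers. Wild-type replicate 3 was the lowest of its group, and E2f1 knockout replicate 4 lay just above it, so these groups overlapped, while every E2f2-labelled liver was below every wild-type liver. The signal was above background on 3 of 4 E2f1 knockout, 1 of 4 E2f2-labelled and 4 of 4 wild-type arrays. The log2 difference was -2.63 ± 0.58 (SE, n = 4 each) for E2f1 knockout and -3.81 ± 0.58 for E2f2-labelled livers against wild type. Within slides, each of which held 1 array of each group, these ran from -3.02 to -2.09 and from -4.61 to -2.72, the second being set by signals mostly at background.

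Cyp2b13, its neighbour and close relative with similar female predominance, was read by a probe at chr7:26880905-26880964 (mm9). It had -2.37, -2.41, -4.35 and -2.32 in E2f1 knockout livers, -4.62, -3.59, -4.06 and -4.22 in E2f2-labelled livers, and 3.17, 1.59, 0.22 and 2.54 in wild-type livers. All 4 livers of each of the first 2 groups lay below all 4 wild-type livers. Among wild-type livers replicate 3 was again the lowest, and replicate 3 was also the lowest E2f1 knockout liver. It was 26.7-fold lower in E2f1 knockout livers (log2 difference -4.74 ± 0.60, SE, n = 4 each). In E2f2-labelled livers it was not well above background on any array, which makes it at least 45.7-fold lower than in wild type. Such a bound sets the brighter group's mean against the dimmest signal of any probe that still counted as above background on each array, or the probe's own signal where higher. It leaves out the spread between livers and holds only for the signal as processed here. Normexp background correction gave a log2 difference of -3.30 for Cyp2b13, smaller than this bound. Within slides the differences for E2f1 knockout livers ran from -5.54 to -4.00. The probes of Cyp2b9 and Cyp2b13 are separate, and how far each also binds the other's RNA was not tested.

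Slc22a27, an organic anion transporter of the SLC22 family with high RNA in female liver, was read by a probe at chr19:7938881-7938940 (mm9). It had -1.89, -4.81, -2.67 and -2.19 in E2f1 knockout livers, -6.13, -5.75, -5.72 and -5.74 in E2f2-labelled livers, and 0.47, -0.85, -0.43 and 1.10 in wild-type livers. The 3 groups did not overlap, with E2f2-labelled livers lowest and wild-type livers highest. The lowest E2f1 knockout value, -4.81, was itself not well above background, so its order against the E2f2-labelled livers is between background signals. It was 7.81-fold lower in E2f1 knockout livers (log2 difference -2.96 ± 0.57, SE, n = 4 each). In E2f2-labelled livers it was not well above background on any array, and so was at least 13.1-fold lower than in wild type and at least 1.67-fold lower than in E2f1 knockout livers. Within slides the differences of E2f1 knockout from wild type ran from -3.96 to -2.24. Unlike the Cyp2b pair, its lowest E2f1 knockout liver was replicate 2, which was below background, and its lowest wild-type liver was also replicate 2.

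The Cyp3a41 probe, at chr5:146319794-146319853 (mm9), lists transcripts of both Cyp3a41a and Cyp3a41b, steroid hydroxylases of the CYP3A family found in female liver, and cannot tell them apart. A second probe, named Cyp3a11, also lists Cyp3a41a among 4 transcripts of the family and was not used for it. It had 1.65, 1.53, 1.31 and 0.47 in E2f1 knockout livers, -3.29, -1.37, -0.48 and -0.49 in E2f2-labelled livers, and 0.26, -0.32, 0.07 and 3.81 in wild-type livers. Wild-type replicate 4 stood far above the other wild-type livers, and E2f1 knockout livers lay above those other 3 wild-type livers. Every E2f2-labelled liver was below every liver of the other groups. The log2 difference from wild type was 0.29 ± 0.85 for E2f1 knockout livers and -2.36 ± 0.85 for E2f2-labelled livers (SE, n = 4 each). On slides 1 to 3 the E2f1 knockout liver was above the wild-type liver, by 1.25 to 1.86, and on slide 4 the difference was -3.34. Without wild-type replicate 4 the group differences became 1.24 and -1.41, so the first of them rests on that liver. The order of the Cyp3a41 probe, with E2f1 knockout at or above wild type, differed from that of Cyp2b9, Cyp2b13 and Slc22a27.

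Cyp17a1, the steroid 17-hydroxylase and lyase on the way to androgens, was read by a probe whose position spans chr19:46742594-46743207 (mm9), longer than the 60-base probe itself. It had 5.07, 5.24, 4.90 and 5.53 in E2f1 knockout livers, 4.96, 5.48, 5.33 and 5.84 in E2f2-labelled livers, and 5.81, 5.48, 5.35 and 5.84 in wild-type livers. All 3 groups overlapped, and the log2 difference from wild type was -0.43 ± 0.21 for E2f1 knockout and -0.22 ± 0.21 for E2f2-labelled livers (SE, n = 4 each). The E2f1 knockout liver was below the wild-type liver on all 4 slides, by -0.73 to -0.24 on the log2 scale. Quantile normalization gave -0.70 and -0.48, and the E2f2-labelled difference was -0.07 without E2f2-labelled replicate 1 and -0.36 without E2f2-labelled replicate 4. On slides 2, 3 and 4 the E2f2-labelled and wild-type values differed by 0.02 or less.

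Fmo2, a flavin-containing monooxygenase that oxidises drugs and other nitrogen or sulfur compounds, was read by a probe at chr1:164806827-164806886 (mm9). It had -0.32, 0.11, -0.81 and 1.12 in E2f1 knockout livers, -1.79, -0.57, -1.19 and -0.73 in E2f2-labelled livers, and 0.55, -0.03, -0.15 and 1.30 in wild-type livers. E2f2-labelled livers were all below wild-type livers, whereas E2f1 knockout livers were mixed with both other groups. The log2 difference from wild type was -0.39 ± 0.43 for E2f1 knockout and -1.49 ± 0.43 for E2f2-labelled livers (SE, n = 4 each). Within slides these ran from -0.87 to 0.14 and from -2.34 to -0.54. The E2f1 knockout difference rests on single livers, at -0.10 without wild-type replicate 4, -0.11 without E2f1 knockout replicate 3 and -0.76 without E2f1 knockout replicate 4.

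A1bg, a plasma protein of the immunoglobulin superfamily whose RNA in rodents is female-predominant in liver, was read by a probe at chr15:60751270-60751329 (mm9). Its signal stayed between -6.14 and -4.93 in E2f1 knockout, -6.00 and -5.56 in E2f2-labelled and -6.15 and -5.27 in wild-type livers. It was not well above background on any array, and no fold is given.

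**Figure D1:**
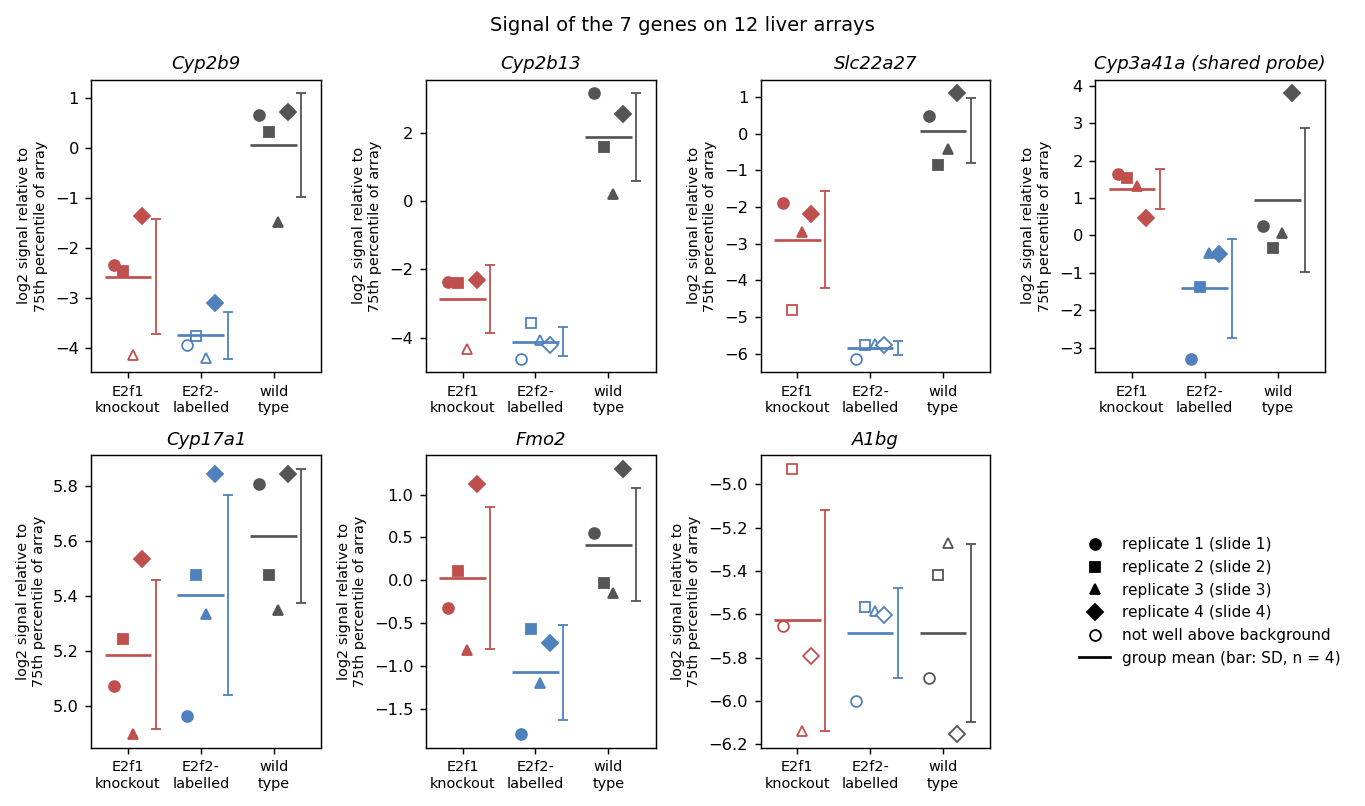
Log2 signal of each gene, scaled to the array's 75th percentile (y axis), in E2f1 knockout, E2f2-labelled and wild-type livers (x axis), 1 point per liver with the symbol giving the replicate and slide, lines for group means and bars for SD (n = 4), open symbols for signals not well above background. Cyp2b13 and Slc22a27 in E2f1 knockout and E2f2-labelled livers lie below all 4 wild-type livers, the Cyp3a41 probe has 1 wild-type liver at 3.81 far above the rest, and A1bg is open throughout.

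Read together, 2 of the 6 genes with signal (Cyp2b13 and Slc22a27) had all 4 E2f1 knockout livers below all 4 wild-type livers, against 6.77% of all genes tested. Against the E2f2-labelled group this count was 5 of 6, every one except Cyp17a1, with 7.05% of all genes. As these contrasts were used to choose the genes, nothing is read from those shares. The comparisons share the wild-type livers.

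Between the E2f2-labelled and the E2f1 knockout livers, Slc22a27 and the Cyp3a41 probe were lower in all 4 E2f2-labelled livers, against 3.83% of all genes. For Slc22a27 this includes E2f1 knockout replicate 2, whose signal was also not well above background. With all E2f2-labelled signals at background, Slc22a27 was at least 1.67-fold lower and Cyp2b13 at least 1.71-fold lower than in E2f1 knockout livers. These bounds hold only for the signal as processed here. Under other settings the log2 differences came down to -0.45 for Slc22a27 and -0.21 for Cyp2b13, smaller than the bounds. Cyp2b13 overlapped between these groups, with 1 E2f2-labelled liver below all E2f1 knockout livers, and its difference on slide 3 was 0.29. The log2 difference of E2f2-labelled minus E2f1 knockout livers was -2.65 ± 0.85 for the Cyp3a41 probe, -1.09 ± 0.43 for Fmo2 and 0.22 ± 0.21 for Cyp17a1 (SE, n = 4 each). For Cyp2b9, above background on 1 of 4 E2f2-labelled and 3 of 4 E2f1 knockout arrays, it was -1.17 ± 0.58.

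**Figure D2:**
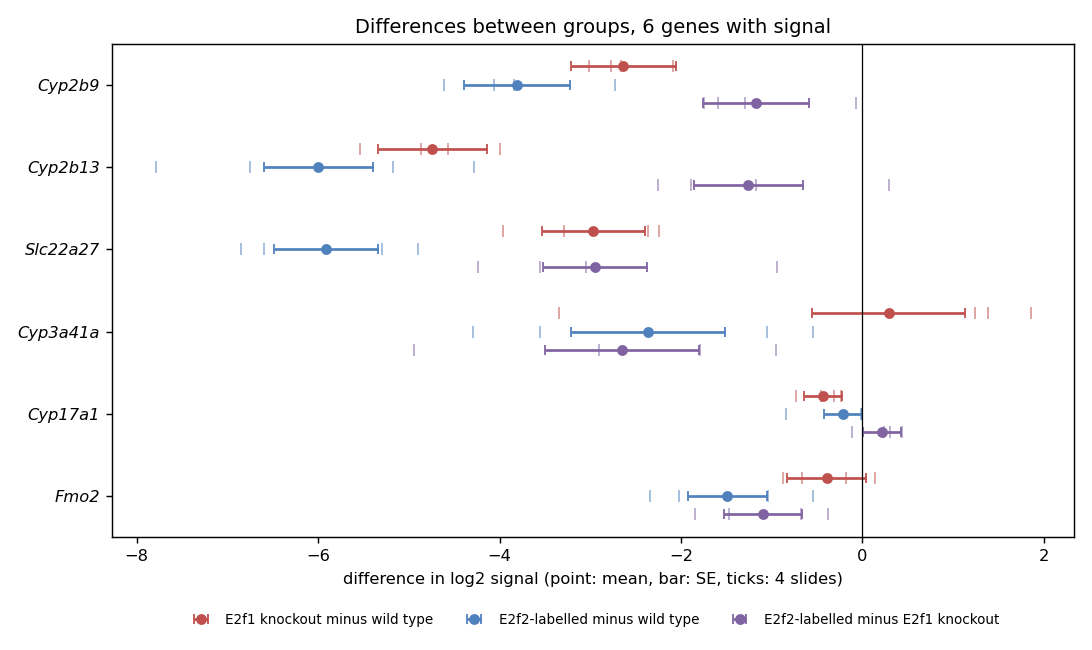
Difference in log2 signal (x axis) for each of the 6 genes with signal (y axis), E2f1 knockout minus wild type, E2f2-labelled minus wild type and E2f2-labelled minus E2f1 knockout, with points for means, bars for SE and ticks for the 4 slides. Cyp2b13 and Slc22a27 lie farthest below 0 against wild type, where their E2f2-labelled signals were at background on all 4 arrays, Cyp17a1 lies near 0, and the slide ticks of the Cyp3a41 probe in E2f1 knockout run from -3.34 to 1.86.

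How these genes varied among livers of the same group was not part of their choice. After group means were removed, all 15 pairs of the 6 genes were positively correlated over the 12 arrays, with Pearson's r from 0.18 to 0.88. The highest were Cyp17a1 with Fmo2 (r = 0.88) and Cyp2b9 with Cyp2b13 (r = 0.84), and Cyp2b9 had r = 0.76 with each of Cyp17a1 and Fmo2. Slc22a27 and the Cyp3a41 probe were less like the others, at 0.26 to 0.38 for Slc22a27 and 0.18 to 0.48 for the Cyp3a41 probe. Among E2f1 knockout livers alone the Cyp3a41 probe ran against all 5 other genes, and its wild-type replicate 4 lay 2.85 above the group mean. The arrays share slides, and the mean deviation of Cyp2b9 ran from -1.19 on slide 3 to 0.85 on slide 4. With slide means removed as well, a step chosen after the data were seen, all 15 pairs remained positive, at 0.08 to 0.86. These values are descriptions over 12 arrays and carry no test, and Cyp2b13 and Slc22a27 were at background in 1 of the 3 groups. In that group, the E2f2-labelled livers, Cyp2b9 was above background on 1 of 4 arrays. Within groups, Cyp2b9 with Cyp2b13 had r = 0.92 in E2f1 knockout, 0.002 in E2f2-labelled and 0.93 in wild-type livers. The share of positive pairs among other genes was not computed.

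**Figure D3:**
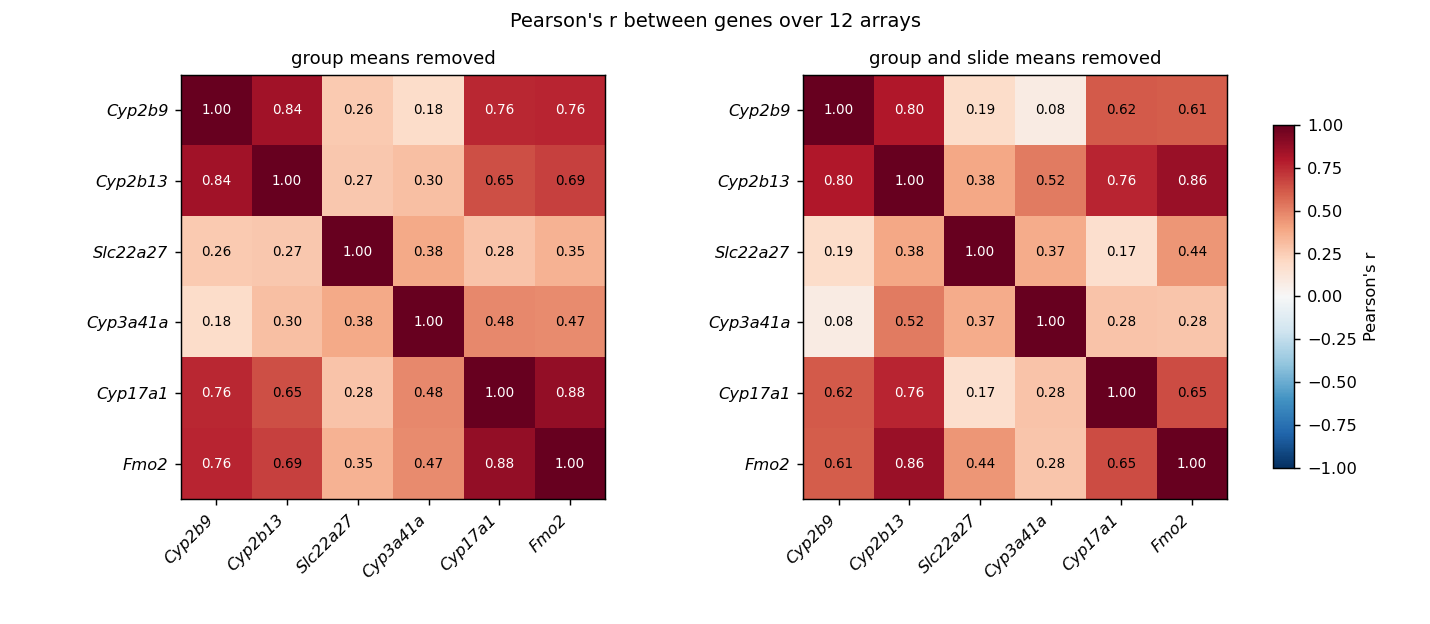
Pearson's r between each pair of the 6 genes over 12 arrays, with group means removed (left) and with group and slide means removed (right), coloured from -1 to 1. Cyp2b9, Cyp2b13, Cyp17a1 and Fmo2 have r of 0.61 or more with each other in both panels, and Slc22a27 has 0.44 or less with every other gene.

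Across 20467 other genes with a value on every array, the within-group pattern most like that of the Cyp3a41 probe was Cyp3a16 (r = 0.90), another female-biased gene of the same family. How far the Cyp3a41 and Cyp3a16 probes also bind each other's RNA was not tested. Scd1, the stearoyl-CoA desaturase, came first for Slc22a27 (r = 0.94), Nup214, a nuclear pore protein, for Cyp2b9 (r = 0.96), and Spint2, a protease inhibitor, for Fmo2 (r = 0.97). The likest named genes were Vwa1, a matrix protein, for Cyp2b13 (r = 0.91) and Gm831 for Cyp17a1 (r = 0.94). For the mean of the 6 standardised genes Cyp2b10 ranked 4th (r = 0.92). With 12 arrays and this many genes, high values of r arise for many genes.

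The genes beside these members in the genome differed in direction. By order among protein-coding genes on GRCm38.p6, Slc22a27 lies between Slc22a26 and Slc22a28, with Slc22a29 and Slc22a30 following. Slc22a26 was lower by 2.21 on the log2 scale in E2f1 knockout livers (limma adjusted p = 0.0371) and, not above background on any E2f2-labelled array, at least 6.51-fold lower there (limma adjusted p = 0.00264). Slc22a29 was lower by 2.04 in E2f1 knockout livers (limma adjusted p = 0.0444) and at least 6.67-fold lower in E2f2-labelled livers (limma adjusted p = 0.00446). Under other settings the E2f2-labelled log2 differences came down to -1.21 for Slc22a26 and -0.93 for Slc22a29, smaller than these bounds. The limma adjusted p for E2f1 knockout livers reached 0.0962 for Slc22a26 and 0.113 for Slc22a29 under the other settings. The gene between them in that row, Slc22a28, went the other way, with log2 differences of 2.06 ± 0.47 and 1.95 ± 0.47 (SE, limma adjusted p = 0.0108 and 0.0125), although it too is known as female-biased. Slc22a30 had 1.33 ± 0.50 in E2f1 knockout livers and 1.81 ± 0.50 in E2f2-labelled livers, and the E2f2-labelled value passed the test (SE, limma adjusted p = 0.0788 and 0.0231). With the slide as a block the E2f1 knockout value passed too (limma adjusted p = 0.0445). Slc22a7, a liver anion transporter elsewhere in the genome, rose in both (2.82 ± 0.57 and 1.83 ± 0.57, SE, limma adjusted p = 0.0062 and 0.0373), although the E2f2-labelled call was lost with the slide as a block (limma adjusted p = 0.0607). Of 12 further genes of this transporter group on the array, these 4 and Slc22a7 included, 7 were tested, and 2 were higher and 2 lower in E2f1 knockout livers. In E2f2-labelled livers 3 were higher and 2 lower. The shares of all genes in these comparisons were 13.2% and 14.6% higher, and 7.41% and 7.57% lower.

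Cyp2b10, the drug-inducible gene beside Cyp2b13 and the only other tested gene of its subfamily, had 1.71, 1.68, 1.25 and 3.01 in E2f1 knockout livers, -1.61, -0.22, -1.17 and 0.00 in E2f2-labelled livers, and 4.26, 3.78, 2.32 and 4.76 in wild-type livers. It fell in both comparisons with wild type, by 1.87 ± 0.54 (SE, limma adjusted p = 0.0298) and by 4.53 ± 0.54 (limma adjusted p = 0.000344), and was lower by 2.66 ± 0.54 in E2f2-labelled than in E2f1 knockout livers (limma adjusted p = 0.027). Like Cyp2b9 and Cyp2b13, its lowest wild-type liver was replicate 3. The adjusted p for E2f1 knockout reached 0.0898 under the other settings.

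Among 7 other CYP3A genes, 4 rose in E2f1 knockout livers and 0 fell, the clearest being Cyp3a57 (2.02 ± 0.38, SE, limma adjusted p = 0.00491) and Cyp3a25 (1.86 ± 0.42, limma adjusted p = 0.0109). Cyp3a13 and Cyp3a59 were the other 2 that rose. Beside the counts of this paragraph, 13.2% of all genes rose and 7.41% fell in E2f1 knockout livers, and 14.6% rose and 7.57% fell in E2f2-labelled livers. In E2f2-labelled livers 0 of 7 passed the limma test in either direction, with 3 higher and 1 lower at an unadjusted p under 0.05, and Cyp3a13 passed with the slide as a block (limma adjusted p = 0.048). Cyp3a11, the main drug-inducible gene of the family, had 1.73 ± 0.72 in E2f1 knockout livers and -1.10 ± 0.72 in E2f2-labelled livers (SE, limma adjusted p = 0.114 and 0.298). Cyp3a44, a female-biased gene next to Cyp3a41a, had log2 differences of -3.55 ± 1.21 in E2f1 knockout livers and -3.23 ± 1.21 in E2f2-labelled livers, and was above background on 1 of 4 arrays in each of those groups (SE, limma adjusted p = 0.0559 and 0.074). Cyp3a16 had 1.10 ± 0.76 in E2f1 knockout livers and -1.63 ± 0.76 in E2f2-labelled livers, neither passing the test (limma adjusted p = 0.345 and 0.143). Of 4 other FMO genes, Fmo1 and Fmo5 rose in E2f1 knockout livers (1.11 ± 0.26 and 0.80 ± 0.21, SE, limma adjusted p = 0.0124 and 0.0185), Fmo5 rose in E2f2-labelled livers (0.73 ± 0.21, limma adjusted p = 0.0265), and 0 fell by that test or at an unadjusted p under 0.05.

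Other female-biased liver genes came from a list of 29, of which 25 were tested. Like all gene lists here, it was written from general knowledge with earlier results of these data known, so its counts are descriptions. Among all genes tested, 7.41% fell and 13.2% rose in E2f1 knockout livers, and 7.57% fell and 14.6% rose in E2f2-labelled livers. In E2f1 knockout livers 9 of 25 fell and 2 rose (Fmo1 and Slc22a28), with a median log2 difference of -0.96. In E2f2-labelled livers 13 of 25 fell and 1 rose, with a median of -1.92, and these medians were the same with genes at background held at their bounds. The 2 comparisons share the wild-type livers. Atp6v0d2, a subunit of the vacuolar proton pump, was not above background on any E2f2-labelled array and was at least 4.54-fold lower there (limma adjusted p = 0.000961), with -0.96 ± 0.47 in E2f1 knockout livers (SE, limma adjusted p = 0.179). Tox, a nuclear factor of the HMG-box family, fell by 2.07 ± 0.39 in E2f2-labelled livers (SE, limma adjusted p = 0.00463) and had -0.43 ± 0.39 in E2f1 knockout livers (limma adjusted p = 0.487). Cd36, a fatty acid translocase, fell by 1.44 ± 0.30 and 1.76 ± 0.30 (SE, limma adjusted p = 0.00789 and 0.00298). The 9 falls in E2f1 knockout livers rested on few arrays: 1 passed without E2f1 knockout replicate 3, 2 without wild-type replicate 1 or 4, 3 without E2f1 knockout replicate 2 and 4 without wild-type replicate 2. With E2f2-labelled livers the count stayed between 11 and 16 when single arrays were left out.

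**Figure D4:**
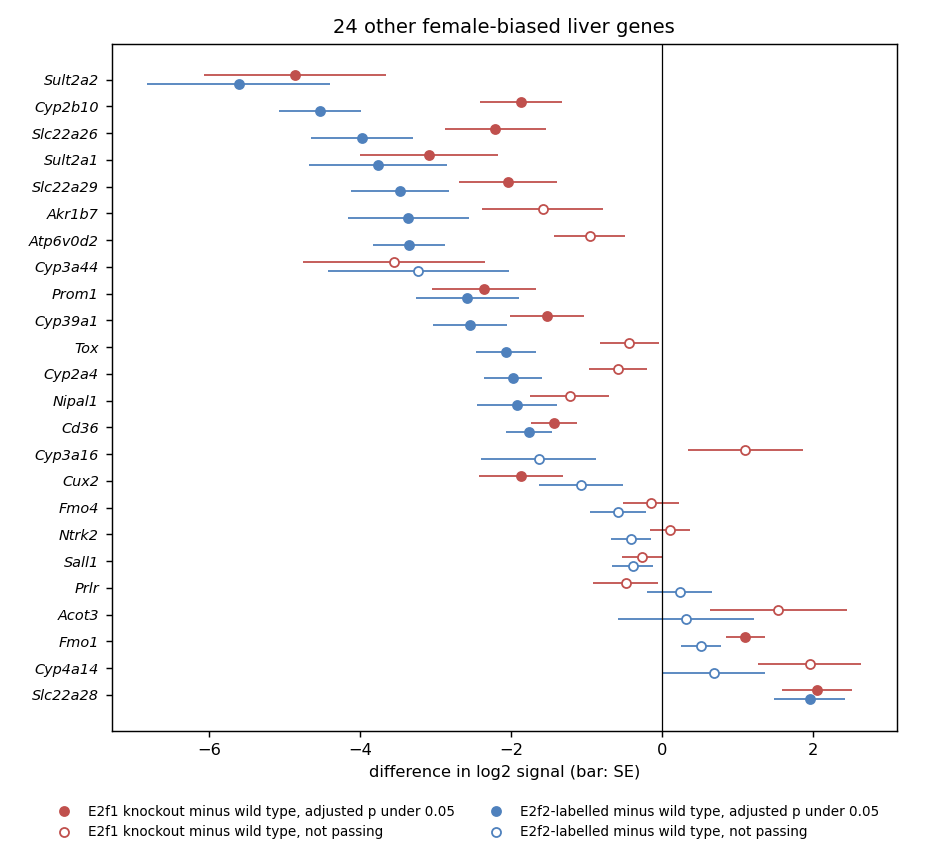
Difference in log2 signal (x axis, bars are SE) of 24 of the 25 other female-biased liver genes (y axis) for E2f1 knockout minus wild type and E2f2-labelled minus wild type, filled where the limma adjusted p was under 0.05. Most lie left of 0, with Cyp2b10 in the second row from the top and Slc22a28 right of 0 in both comparisons in the bottom row.

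Between E2f2-labelled and E2f1 knockout livers 2 of the 25 passed, and both were lower: Cyp2b10 and Atp6v0d2 (at least 2.34-fold lower, limma adjusted p = 0.0223). Leaving out single arrays gave 0 to 2, with 0 without E2f1 knockout replicate 1 or 4.

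Male-biased liver genes moved the other way. In E2f1 knockout livers 16 of 21 rose, 1 fell and the median log2 difference was 1.62. In E2f2-labelled livers 17 of 21 rose, 1 fell and the median was 1.86. Among all genes 13.2% and 14.6% rose, and 7.41% and 7.57% fell. This list too was written with earlier results of these data known. Cyp7b1, an oxysterol hydroxylase, rose by 3.05 ± 0.45 and 3.55 ± 0.45 (SE, limma adjusted p = 0.00161 and 0.000476). Cyp2d9, a steroid hydroxylase, rose by 2.54 ± 0.35 and 1.86 ± 0.35 (limma adjusted p = 0.00128 and 0.0046). The exception in both was Ces2e, a carboxylesterase, at -1.21 ± 0.39 and -1.95 ± 0.39 (limma adjusted p = 0.0447 and 0.00567), named here after its values were seen. Its E2f1 knockout call was lost with the slide as a block (limma adjusted p = 0.0638). Between E2f2-labelled and E2f1 knockout livers 0 of 21 passed the limma test, with 2 higher and 0 lower at an unadjusted p under 0.05.

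In the growth hormone pathway itself, 3 of 19 genes rose and 2 fell in E2f1 knockout livers, and 3 rose and 2 fell in E2f2-labelled livers. These shares, 15.8% and 10.53% in both, lie near those of all genes (13.2% and 7.41%, and 14.6% and 7.57%), so the counts are no result about the pathway. With the slide as a block, with array weights or with an eBayes trend, 5 rose in E2f2-labelled livers. Ghr, the growth hormone receptor, rose by 1.72 ± 0.39 and 1.39 ± 0.39 (SE, limma adjusted p = 0.0106 and 0.0253). Igf1, the growth factor that liver releases in response, rose by 1.06 ± 0.25 and 1.25 ± 0.25 (limma adjusted p = 0.0129 and 0.00599). Stat5b had log2 differences of 0.38 ± 0.18 and 0.26 ± 0.18 and did not pass (limma adjusted p = 0.171 and 0.326). Bcl6, the male-biased repressor, had 0.94 ± 0.66 and 1.48 ± 0.66 without passing (limma adjusted p = 0.358 and 0.13). Cux2, the female-biased repressor, was not above background on any E2f1 knockout array and was at least 2.22-fold lower there (limma adjusted p = 0.0348), and had -1.07 ± 0.56 in E2f2-labelled livers (limma adjusted p = 0.189). That Cux2 call was lost without wild-type replicate 1, 2 or 4 or E2f1 knockout replicate 1, 2 or 3, with normexp background correction and with no filter on dim probes.

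Cyp2b10 is also a textbook target of the drug receptor CAR. Of 26 tested CAR and PXR targets, 14 rose and 2 fell in E2f1 knockout livers, and 10 rose and 4 fell in E2f2-labelled livers. Among all genes 13.2% and 14.6% rose, and 7.41% and 7.57% fell. The 10 became 4 to 6 without wild-type replicate 1 or 2 or E2f2-labelled replicate 2, 3 or 4, and 5 with quantile normalization, with the series matrix values or with no filter on dim probes. Cyp2b10 and Sult2a1, a hydroxysteroid sulfotransferase, both on the female-biased list too, were the 2 that fell in E2f1 knockout livers, Sult2a1 being named after its values were seen. Por, the electron donor of microsomal P450 enzymes, rose by 2.18 ± 0.33 and 1.79 ± 0.33 (SE, limma adjusted p = 0.00187 and 0.00435). Nr1i3, which encodes CAR, rose by 2.17 ± 0.50 in E2f1 knockout livers (limma adjusted p = 0.0118) and had 1.27 ± 0.50 in E2f2-labelled livers (limma adjusted p = 0.0895).

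Around Cyp17a1, 14 genes of steroid conversion were tested, of which 7 rose and 0 fell in E2f1 knockout livers, and 5 rose and 0 fell in E2f2-labelled livers by the limma test, with 1 lower in each at an unadjusted p under 0.05. Of all genes 13.2% and 14.6% rose, and 7.41% and 7.57% fell. Cyb5a, the cytochrome b5 that supports the lyase step of Cyp17a1, rose by 1.03 ± 0.17 and 0.80 ± 0.17 (SE, limma adjusted p = 0.00285 and 0.00778). Cyp11a1, Cyp11b1 and Cyp11b2, which mark adrenal tissue, did not pass the filter on dim signal. Of 9 listed markers of adrenal and gonad tissue 3 were tested. In E2f1 knockout livers 0 of these were called, and in E2f2-labelled livers 1 was higher, against 14.6% of all genes. The gene called was Cyp21a1, with a log2 difference of 1.76. Nr5a1 had 0.59 there and passed with the slide as a block (limma adjusted p = 0.0831 without it and 0.02 with it).

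Liver tumour markers also differed between the groups. Of 12 tested markers 10 were lower and 0 higher in E2f1 knockout livers, against 7.41% of all genes called lower. In E2f2-labelled livers 11 of the 12 markers were lower and 0 higher, against 7.57%. Their median log2 signal was 0.13, -0.98, -1.95 and -0.58 in E2f1 knockout livers, -1.64, -0.92, -1.76 and -1.93 in E2f2-labelled livers, and 2.33, 4.12, 0.66 and 3.09 in wild-type livers. Wild-type replicate 3, lowest of its group for Cyp2b9, Cyp2b13 and the tumour markers, also had the highest median of male-biased genes among wild-type livers, at 5.45 against 3.70, 4.30 and 3.98 in the other 3. The remaining wild-type livers did not follow 1 order. Replicate 2, highest for the tumour markers, was the lowest wild-type liver for Slc22a27 (-0.85) and the Cyp3a41 probe (-0.32). Replicate 1 was the highest for Cyp2b13 (3.17), with a tumour marker median of 2.33. The log2 of the summed signal of the tumour markers ran from 2.35 to 4.83 in E2f1 knockout, 2.04 to 3.396 in E2f2-labelled and 5.45 to 8.85 in wild-type livers. Neutrophil markers were lower too, with 5 of 10 called in E2f1 knockout livers and 3 of 10 in E2f2-labelled livers. Endothelial markers had 2 and 3 of 12 called lower and 0 higher, with medians of 0.89 to 1.29 in E2f1 knockout, 0.68 to 1.405 in E2f2-labelled and 1.46 to 1.82 in wild-type livers, where wild type overlapped neither. At an unadjusted p under 0.05, 8 and 3 of these 12 were lower and 0 higher. Stellate cell and fibroblast markers had 4 and 3 of 11 called lower and 1 and 0 higher, with median differences of -0.06 and -0.38. Their medians were -0.36 to -0.05 in E2f1 knockout, -0.53 to 0.13 in E2f2-labelled and 0.25 to 0.81 in wild-type livers. Macrophage markers had 3 and 5 of 17 called lower and 2 and 2 higher. Markers of T, NK and B cells had 0 and 2 of 10 lower and 1 and 0 higher. Cholangiocyte markers had 1 and 1 of 6 lower and 0 higher. Hepatocyte markers had 0 lower, and 6 and 5 of 18 higher. Beside all these cell type counts, 7.41% and 7.57% of all genes were called lower, and 13.2% and 14.6% higher. Adipocyte markers, of which 4 of 8 were tested, had a median log2 signal of -0.50 to 3.31 in E2f1 knockout, -1.29 to -0.02 in E2f2-labelled and 0.48 to 2.05 in wild-type livers. In E2f1 knockout livers 0 of these 4 were called, and in E2f2-labelled livers 2 were lower and 1 higher. Of the defining adipocyte genes, Adipoq and Plin1 were each above background on 1 of 12 arrays. The part of tumour tissue and of these other cells in the results was not tested.

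**Figure D5:**
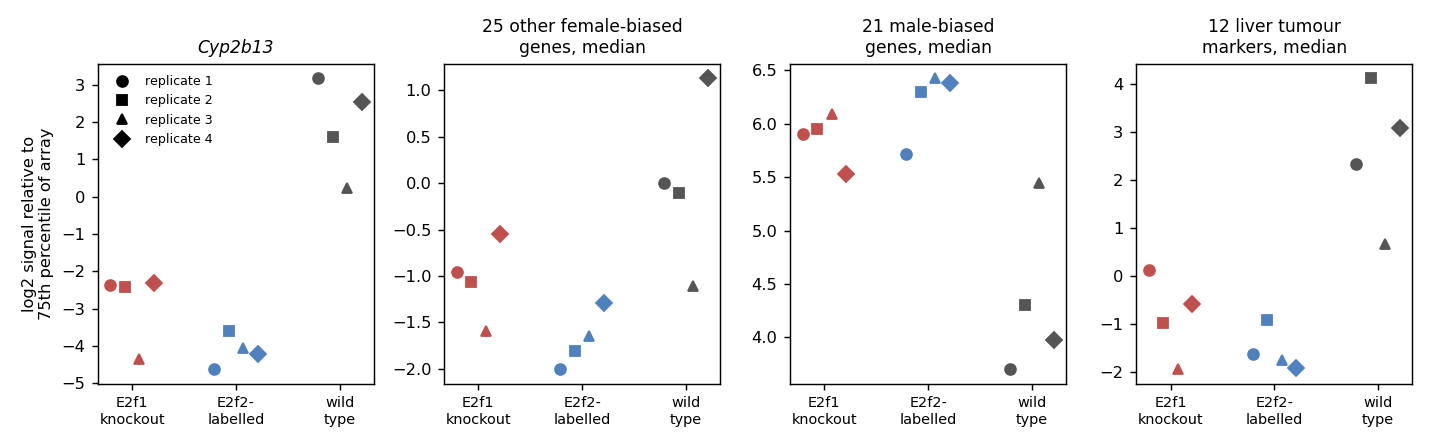
Log2 signal, scaled to the array's 75th percentile (y axis), of Cyp2b13 and the median of 25 other female-biased genes, 21 male-biased genes and 12 liver tumour markers, in E2f1 knockout, E2f2-labelled and wild-type livers (x axis), 1 point per liver with symbols for replicates. Wild-type replicate 3 (triangle) is the lowest wild-type liver for Cyp2b13, the female-biased genes and the tumour markers and the highest for the male-biased genes. The order of the other wild-type livers differs between panels.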

How the data were processed

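The authors deposited the scanner files of 12 arrays with 1 dye. The submitters' processing notes name Agilent Feature Extraction 10.7.3.1, and 50 ng of RNA was labelled per liver per the labels' protocols. The processed signal used here is a linear intensity from which background had been subtracted, per the file headers. The deposited series matrix holds log2 values with a median of 3.84 on every array (r of at least 0.998 with the scanner log2 signal), whose centring and normalization are not stated in the sources used, and it served as an alternative. The members and gene lists were chosen, from general knowledge, with earlier results of these data known.

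Control and outlier spots were left out, spots of a probe averaged, and the array's 75th percentile subtracted on the log2 scale. A probe was tested if 3 or more of the 4 arrays of any group had it well above background, and the brightest tested probe stood for a gene. One limma 3.58.1 fit (R 4.3.3) covered all 12 arrays and 20572 genes, with no covariate, Benjamini-Hochberg adjusted p under 0.05 called, and was tested on simulated data. Gene lists were described by counts and medians only, and p-values measure the spread between these samples. Named genes were the 7 members, up to 4 genes per list by adjusted p, fixed regulators, family members with signal and the most similar genes by r. Of 15 named genes with several tested probes, 1 changed sign between probes in E2f2-labelled against wild-type livers (Cyp3a59), 0 in E2f1 knockout against wild-type livers, and 5 in E2f2-labelled against E2f1 knockout livers (Cyp3a13, Fmo5, Ghr, Rxra and Srd5a1). Gene names and promoter windows came from RefSeq on GRCm38.p6, and probe positions (mm9) from the files. Exon positions were not looked up. Values of 1 gene of the lists are not reported here, though it is counted in them.

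Slide and replicate number coincide, and each slide held 1 array of every group, so array position on the slide and group cannot be told apart. Same-slide arrays deviated together: the correlation of deviations from group means was positive in 12 of 12 same-slide pairs (r from 0.0412 to 0.424) and above 0.1 in 10. The rule for pairing mice by number asked for all above 0.1, so the slide block is an alternative, and its values stand beside the results that it changes.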

Additional observations from a re-analysis of the deposited data

Results flagged for a closer look

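Groups of 4 livers were searched for a single array far from the other 3, and 11 of 162 were found, where chance gives about 1 in 20. Among the 7 genes, Cyp2b13 was at -4.35 in E2f1 knockout replicate 3 against -2.41 to -2.32 in the other E2f1 knockout livers. Slc22a27 was at -6.13 in E2f2-labelled replicate 1 against -5.75 to -5.72 in the rest, and A1bg at -6.00 in the same liver against -5.60 to -5.56, with all of these signals at background. The Cyp3a41a probe was at 3.81 in wild-type replicate 4 against -0.32 to 0.26 in the rest.

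Of the other named genes, Atp6v0d2 was low in E2f1 knockout replicate 2 (-3.32 against -2.15 to -1.94). Cyp2d9 was high in replicate 3 of both the E2f1 knockout (6.64 against 5.83 to 5.95) and the E2f2-labelled livers (5.88 against 5.21 to 5.32). Stat5b was low in E2f2-labelled replicate 4 (2.86 against 3.103 to 3.15). Among wild-type livers, Slc22a6 was high in replicate 4 (0.15 against -1.49 to -1.23). Srd5a1 and Ugt2b34 were high in wild-type replicate 3 (3.65 against 2.26 to 2.40, and 4.74 against 3.95 to 4.08). No cause was tested for any of them.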

How the results depend on the processing

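For Cyp2b9, Cyp2b13 and Slc22a27 the difference from wild type kept its sign under the 12 fits without 1 array and the other settings run. Normexp background correction shrank it to -1.33, -3.09 and -1.49 for E2f1 knockout livers and to -1.54, -3.30 and -1.93 for E2f2-labelled livers. Their signal near background limits how large it can be measured. For Cyp2b13 and Slc22a27 the normexp values in E2f2-labelled livers are smaller differences than the bounds given above. Other bounds were undercut as well under other settings. Against wild type, E2f2-labelled log2 differences came down to -1.21 for Slc22a26, -0.93 for Slc22a29 and -0.70 for Atp6v0d2. Cux2 came down to -0.37 in E2f1 knockout livers. E2f2-labelled minus E2f1 knockout differences came down to -0.21 for Cyp2b13, -0.45 for Slc22a27 and -0.36 for Atp6v0d2. The Cyp3a41a difference between E2f1 knockout and wild type was -0.14 and -0.01 when wild-type replicate 2 or 3 was left out, and 1.24 without replicate 4. Srd5a1 in E2f2-labelled minus E2f1 knockout livers turned to -1.89 when its probes, which disagreed, were averaged. Counts of genes called, against 4234 (E2f1 knockout minus wild type), 4564 (E2f2-labelled minus wild type) and 337 (E2f2-labelled minus E2f1 knockout), were 2538 to 4897, 2753 to 5278 and 235 to 372 without single arrays. The lowest were 2538 and 2753 without wild-type replicate 2, with 2633 without E2f1 knockout replicate 3 and 3041 without E2f2-labelled replicate 3. No filter on dim probes gave 2789 and 2989, median centring 2927 for E2f2-labelled livers, and normexp, the filter on all 12 arrays and array weights 211, 208 and 519 for the last comparison. Quantile normalization gave 50.4% and 49.5% of calls against wild type as higher, and the series matrix 50.2% and 49.5%. Other female-biased genes called lower numbered 5 with normexp, 2 with no filter and 4 with the filter on all 12 arrays in E2f1 knockout livers (1 to 10 without single arrays), and 7 with the filter on all 12 arrays in E2f2-labelled livers (11 to 16 without single arrays). The filter on all 12 arrays left 15 of these genes tested. In E2f2-labelled minus E2f1 knockout livers they numbered 1 with normexp, no filter or the filter on all 12 arrays, 4 with array weights, and 0 to 2 without single arrays. The cause was not tested, except that fewer genes enter the stricter filter. With the replicate number as a block, which is not a pairing shown by the design, the counts of all genes were 5489, 6294 and 436.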
